A study of Homo sapiens with 6 samples.

Results

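The antigen presentation genes examined here were HLA-B, HLA-C, B2M, TAP1, PSMB8 and PSMB9 of the MHC class I pathway and CD74, HLA-DRA and CIITA of the MHC class II pathway. They were chosen by gene symbol, and all 9 were found among the 21512 genes of the table and were among the 13885 genes tested. Transcripts were counted in BicR and LNCaP cells, both human prostate cancer lines, with 1 library for each line under DHT, bicalutamide or ethanol. LNCaP is an established androgen-responsive line, and the labels call BicR prostate cancer without saying how it was derived. Cells of both lines spent 3 days in phenol red-free medium with 2.5% charcoal-stripped serum and then 24 h with 10 nM DHT (dihydrotestosterone, an androgen), 1 µM bicalutamide (an antiandrogen) or ethanol, the vehicle. No cytokine is named in the labels for any group.

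MHC class I molecules show peptides made inside the cell to CD8+ T cells. The proteasome cuts proteins into peptides, the TAP transporter carries these into the endoplasmic reticulum, and there a heavy chain such as HLA-B or HLA-C folds with the invariant light chain beta-2-microglobulin and a peptide. Class II molecules show peptides from the endosomal route to CD4+ T cells, are made mainly by professional antigen presenting cells, and need the invariant chain CD74 as a chaperone. Interferon gamma raises both pathways, the class I genes largely through IRF1 and NLRC5, the class II genes through the coactivator CIITA. Class I is made by nearly all nucleated cells, and epithelial cells at rest usually make little class II.

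Total counts per library ran from 42162723 to 55917016. Levels within a gene are given as CPM, counts scaled to the library size after TMM normalization, and levels between genes as RPKM, the authors' values scaled for gene length and depth. Luminal prostate markers were present in every library, with KLK3, KRT8, KRT18, HOXB13 and EPCAM among the genes tested. Among leukocyte markers, PTPRC and MS4A1 were at 0 in all 6 libraries and ITGAM, with at most 76 counts, was the highest of the 10. The LNCaP ethanol library stood apart in the endoplasmic reticulum chaperone gene HSPA5, at 8598 CPM against 1245 to 1646 CPM in the other 5 libraries, so LNCaP results are also given against the bicalutamide library.

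The 250 bases before the start of 5 of these genes are shown as the pairs and the gene that the results set side by side: HLA-B and B2M, whose products pair but whose ratios of DHT to ethanol lay on opposite sides of 1, TAP1 and PSMB9, which are divergent neighbours with starts 488 bases apart, and CD74, which differed most between the lines. Sequences are RefSeq's, build GRCh38.p14, read 5′ to 3′ on the gene's strand, and entries were found for 7 of the 9 genes. Capitals mark matches on either strand to GAAA followed, after any 2 bases, by GAAA (the core of the interferon-stimulated response element), CCAAT (the NF-Y box core) or TGACG (a CRE-like core), some of which overlap one another.
HLA-B (chr6:31357180-31357429, minus strand): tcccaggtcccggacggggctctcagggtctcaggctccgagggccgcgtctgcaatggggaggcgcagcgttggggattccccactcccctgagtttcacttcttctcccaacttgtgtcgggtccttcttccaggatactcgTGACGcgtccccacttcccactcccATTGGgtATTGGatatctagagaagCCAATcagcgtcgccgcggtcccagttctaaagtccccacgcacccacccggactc
B2M (chr15:44711267-44711516, plus strand): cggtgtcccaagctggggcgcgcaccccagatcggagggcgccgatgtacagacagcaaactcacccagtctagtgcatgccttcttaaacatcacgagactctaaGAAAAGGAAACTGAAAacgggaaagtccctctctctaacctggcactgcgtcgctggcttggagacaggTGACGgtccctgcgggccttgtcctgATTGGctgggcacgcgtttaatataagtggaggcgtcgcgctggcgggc
TAP1 (chr6:32853705-32853954, minus strand): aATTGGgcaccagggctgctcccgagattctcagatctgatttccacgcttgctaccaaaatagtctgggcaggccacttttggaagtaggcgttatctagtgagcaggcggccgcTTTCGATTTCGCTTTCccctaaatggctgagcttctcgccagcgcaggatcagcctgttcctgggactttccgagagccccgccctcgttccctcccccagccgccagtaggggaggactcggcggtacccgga
PSMB9 (chr6:32853942-32854191, plus strand): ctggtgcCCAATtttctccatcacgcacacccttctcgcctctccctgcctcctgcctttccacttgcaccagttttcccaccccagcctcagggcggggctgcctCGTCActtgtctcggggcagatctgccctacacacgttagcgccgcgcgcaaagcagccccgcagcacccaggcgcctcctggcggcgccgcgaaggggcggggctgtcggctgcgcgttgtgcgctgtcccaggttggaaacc
CD74 (chr5:150412911-150413160, minus strand): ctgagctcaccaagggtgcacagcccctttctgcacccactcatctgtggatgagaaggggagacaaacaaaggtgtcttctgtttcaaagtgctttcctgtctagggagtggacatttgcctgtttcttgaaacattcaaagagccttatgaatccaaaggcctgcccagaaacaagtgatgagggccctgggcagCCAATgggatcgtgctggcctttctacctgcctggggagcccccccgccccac

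In these windows the paired GAAA motif matched at 2 places in B2M and at 2 in the TAP1 window beside PSMB9, and at 0 in HLA-B, HLA-C, PSMB8, PSMB9 and CD74. It is present in 3.02% of 35116 RefSeq windows of the same length. CCAAT matched in HLA-B, HLA-C, B2M, PSMB9, CD74 and the TAP1 window shown, against 32.0% of all windows. The TAP1 and PSMB9 windows share 13 bases, and the CCAAT match of each lies there, so it is 1 site read on both strands. TGACG, present in 21.2% of all windows, matched in HLA-B, HLA-C, B2M, PSMB9 and 1 of 2 windows of PSMB8. These are matches of letters and do not show binding. Nor does a count of 0 show that an element is absent, because sites that depart from these letters were not searched for.

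The first comparison set the lines against each other over the 3 treatments. Transcripts of 2 of the 3 class II genes, CD74 and HLA-DRA, were lower in BicR than in LNCaP, while 0 of the 6 class I genes passed in either direction. CD74 averaged 2.92 ± 0.892 CPM in BicR and 17.6 ± 2.07 CPM in LNCaP, and HLA-DRA averaged 8.36 ± 2.73 CPM in BicR and 26.6 ± 2.26 CPM in LNCaP (SD, n = 3 each, 1 library per treatment). Over all genes tested, 2.84% were called lower and 1.58% higher in BicR (395 and 219 of 13885 genes, edgeR's quasi-likelihood test, Benjamini-Hochberg adjusted p at most 0.05). With library totals in place of TMM the split was 517 lower and 523 higher, and CD74 and HLA-DRA were called there too.

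CD74, which encodes the invariant chain that guides class II molecules to endosomes, had 1.93, 3.15 and 3.67 CPM in BicR under DHT, bicalutamide and ethanol, against 19.7, 15.6 and 17.6 CPM in LNCaP under the same treatments. The lines did not overlap, and every BicR library lay below the lowest LNCaP library. The fitted difference was -2.62 on the log2 scale (SE 0.26, edgeR adjusted p = 0.00208), and CD74 was lower in BicR in 3 of 3 treatments.

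HLA-DRA, the gene of the invariant alpha chain of HLA-DR, had 5.25, 10.3 and 9.54 CPM in BicR under DHT, bicalutamide and ethanol, against 24.2, 26.7 and 28.7 CPM in LNCaP. Again the lines did not overlap, and BicR under DHT was the lowest library. The fitted difference was -1.72 (SE 0.21, edgeR adjusted p = 0.00433). Leaving out the LNCaP bicalutamide library ended both calls, with CD74 at -2.79 and HLA-DRA at -1.89 and edgeR adjusted p = 0.0798 for each, and leaving out the BicR bicalutamide library did the same with adjusted p = 0.0747 for each. Each of those fits called 0 genes in all, against 1506 higher and 2102 lower genes at an unadjusted p of at most 0.05 without LNCaP bicalutamide, and 1498 and 2117 without BicR bicalutamide.

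CIITA, the coactivator on which class II transcription depends in antigen presenting cells, was barely read: 5, 27 and 25 counts in BicR under DHT, bicalutamide and ethanol, and 19, 39 and 22 counts in LNCaP. These counts overlapped between the lines, and the fitted difference of -0.49 (SE 0.43, edgeR adjusted p = 0.501) did not pass. Per length, CIITA averaged 0.0570 ± 0.0352 RPKM in BicR and 0.0736 ± 0.0327 RPKM in LNCaP (SD, n = 3 each), against 4.60 ± 1.63 RPKM in BicR and 14.1 ± 1.21 RPKM in LNCaP for HLA-DRA.

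**Figure D1:**
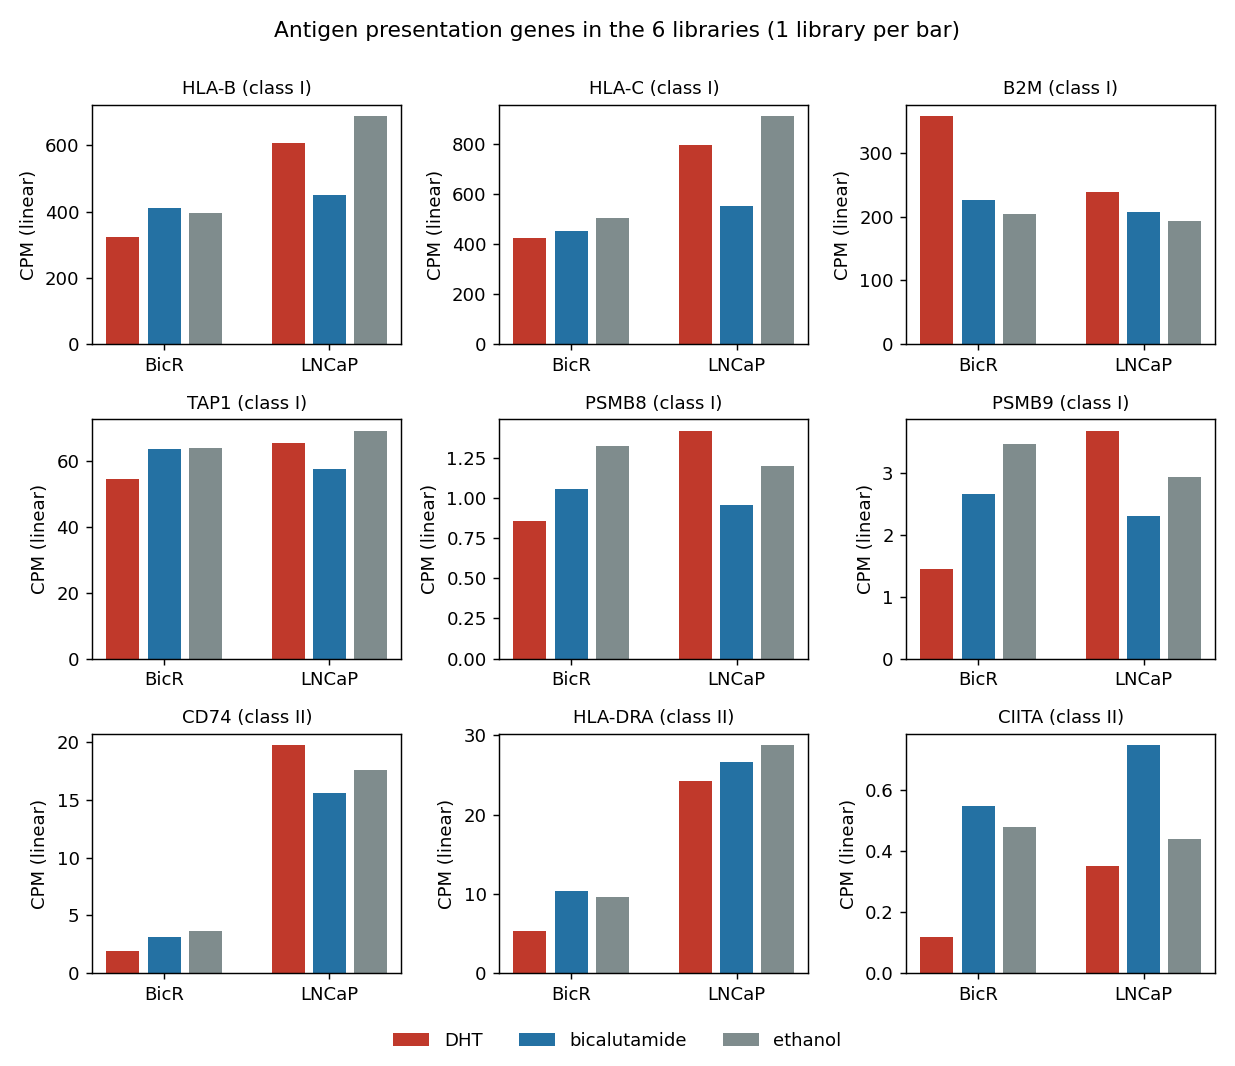
Levels of the 9 genes in CPM on linear axes that start at 0, with BicR left of LNCaP and 1 bar per library coloured by treatment. CD74 and HLA-DRA were lower in every BicR library than in any LNCaP library, while B2M, TAP1, PSMB8, PSMB9 and CIITA overlapped between the lines.

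Among the class I genes, the heavy chains came closest to a difference. HLA-C had 424, 451 and 504 CPM in BicR under DHT, bicalutamide and ethanol, against 795, 550 and 909 CPM in LNCaP. HLA-B had 323, 412 and 397 CPM in BicR, against 607, 449 and 688 CPM in LNCaP. For both genes all BicR libraries lay below all LNCaP libraries, but LNCaP under bicalutamide came close to BicR. The fitted differences were -0.68 for HLA-C (SE 0.20, edgeR adjusted p = 0.0865) and -0.61 for HLA-B (SE 0.21, edgeR adjusted p = 0.12). DESeq2 called both, with adjusted p = 0.00933 for HLA-C and 0.0338 for HLA-B.

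B2M, the gene of the light chain shared by all classical class I molecules, had 358, 227 and 204 CPM in BicR under DHT, bicalutamide and ethanol, against 238, 208 and 193 CPM in LNCaP. The lines overlapped, and BicR under DHT was the highest library. Its fitted difference was 0.26 (SE 0.17, edgeR adjusted p = 0.379), opposite in sign to those of the heavy chains. The ratio of HLA-B to B2M in RPKM was 0.566, 1.14 and 1.22 in BicR under DHT, bicalutamide and ethanol, against 1.60, 1.36 and 2.24 in LNCaP, and every BicR ratio was below every LNCaP ratio.

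TAP1, a subunit of the peptide transporter, had 54.5, 63.7 and 64.2 CPM in BicR under DHT, bicalutamide and ethanol, against 65.5, 57.5 and 69.3 CPM in LNCaP, a fitted difference of -0.08 (SE 0.15, edgeR adjusted p = 0.787). PSMB9, a catalytic subunit of the immunoproteasome, had 1.45, 2.67 and 3.48 CPM in BicR, against 3.68, 2.30 and 2.94 CPM in LNCaP (fitted difference -0.27, SE 0.36, edgeR adjusted p = 0.663). The lines overlapped for both genes. PSMB8, another such subunit, had 36 to 69 counts per library in BicR and 50 to 77 in LNCaP (fitted difference -0.14, SE 0.33, edgeR adjusted p = 0.821). The SE of both proteasome genes was wider than that of HLA-B, HLA-C, B2M and TAP1, and a p that misses the threshold does not show equal levels.

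Counted by overlap, 2 of 6 class I genes (HLA-B and HLA-C) and 2 of 3 class II genes had all BicR libraries below all LNCaP libraries, which 16.8% of the genes tested did, and 0 had the opposite order, which 16.6% did. The median fitted difference was -0.21 for the class I genes and -1.72 for the class II genes, beside 0.00 over all genes tested. Summed over members, class I stood at 565, 563 and 573 RPKM in BicR under DHT, bicalutamide and ethanol, against 769, 607 and 809 RPKM in LNCaP. Class II stood at 3.58, 7.24 and 7.14 RPKM in BicR, against 21.3, 21.9 and 22.3 RPKM in LNCaP. Class I therefore exceeded class II 158-fold, 77.8-fold and 80.3-fold in BicR, against 36.2-fold, 27.7-fold and 36.2-fold in LNCaP.

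In summed CPM the class I difference between the lines averaged -0.45 ± 0.28 on the log2 scale and the class II difference -2.0 ± 0.53 (SD over 3 treatments). Class II differed more than class I by -2.04 under DHT, -1.49 under bicalutamide and -1.11 under ethanol, so in 3 of 3 treatments. No p is given for these sums, because their members were chosen, and the calls of single genes do not by themselves show that the classes differed. Bulk RNA cannot tell fewer cells with class II transcripts from less of them per cell.

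**Figure D2:**
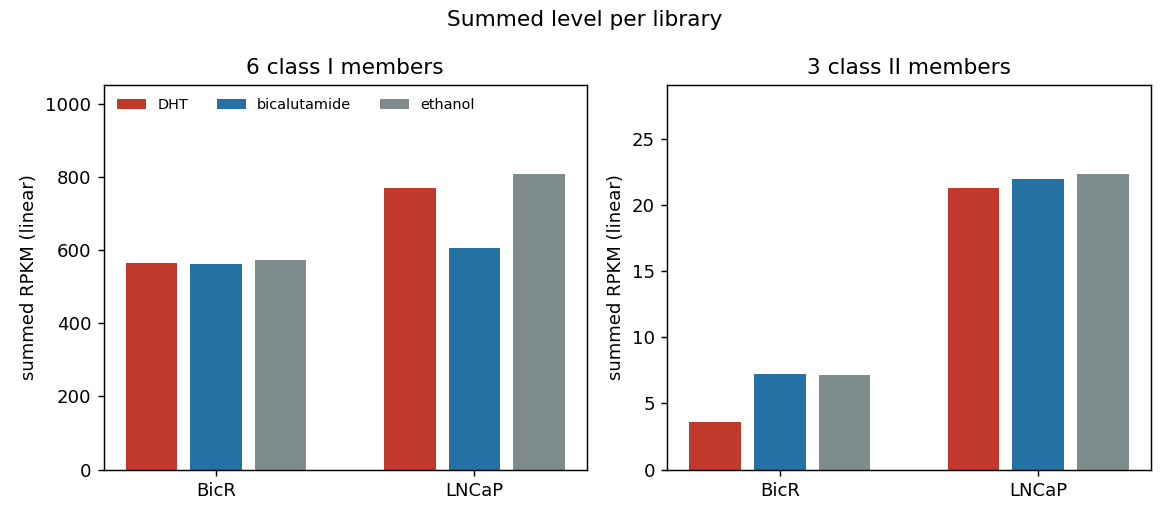
Summed RPKM of the 6 class I genes (left) and the 3 class II genes (right), on separate linear axes from 0, with 1 bar per library and BicR left of LNCaP. Class I lay between 563 and 809 RPKM in all libraries, while class II lay between 3.58 and 7.24 RPKM in BicR and between 21.3 and 22.3 RPKM in LNCaP.

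The other class II genes, from a list of 17 symbols of which 16 were tested, all had a negative fitted difference (median -0.68). In BicR 4 were called lower and 0 higher, beside 2.84% and 1.58% of all genes tested, and 12 did not pass. The 4 were chain genes. HLA-DRB5 stood at -2.24 (SE 0.45, edgeR adjusted p = 0.0317), HLA-DRB1 at -1.87 (SE 0.38, adjusted p = 0.0335), HLA-DPB1 at -1.78 (SE 0.28, adjusted p = 0.0149) and HLA-DQB1 at -1.21 (SE 0.25, adjusted p = 0.0335). Each of these calls was lost without either bicalutamide library, where 0 genes were called. Without the LNCaP DHT library the adjusted p was 0.0585 for HLA-DRB1 and 0.0756 for HLA-DQB1, and without the BicR DHT library it was 0.0591 for HLA-DQB1 (edgeR). HLA-DPB1, a beta chain gene, had 1.84, 2.85 and 3.19 CPM in BicR under DHT, bicalutamide and ethanol, against 8.84, 5.88 and 13.1 CPM in LNCaP, with no overlap. HLA-DPA1, the alpha chain gene beside it, did not pass (-0.76, SE 0.23, edgeR adjusted p = 0.0915), nor did HLA-DMA, which encodes part of the peptide exchange factor (-0.25, SE 0.15, adjusted p = 0.316). In 9 of the 16 genes all BicR libraries lay below all LNCaP libraries, and in 0 above, beside 16.8% and 16.6% of all genes tested. Reads of near-identical chain genes, HLA-DRB1 and HLA-DRB5 among them, may have been split or shared in the counting, as may those of HLA-B and HLA-C.

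Of 8 further class I chain genes 7 were tested: HLA-F, a nonclassical gene, was lower in BicR (-1.14, SE 0.24, edgeR adjusted p = 0.0352), 0 were higher and 6 did not pass. By the same test 2.84% of all genes were lower in BicR and 1.58% higher. HLA-F had 6.89, 8.98 and 8.68 CPM in BicR under DHT, bicalutamide and ethanol, against 20.2, 12.5 and 22.6 CPM in LNCaP. Its call was lost without either bicalutamide library, without LNCaP DHT (edgeR adjusted p = 0.0951) and without BicR DHT (0.0709). The median of the 7 was -0.39. None of the 12 genes of peptide supply and loading passed (median -0.16), including TAP2 at 0.22 (adjusted p = 0.374), the tapasin gene TAPBP at -0.15 (0.682) and the immunoproteasome subunit gene PSMB10 at -0.47 (0.228). None of the 14 constitutive proteasome genes passed either (median -0.26).

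**Figure D3:**
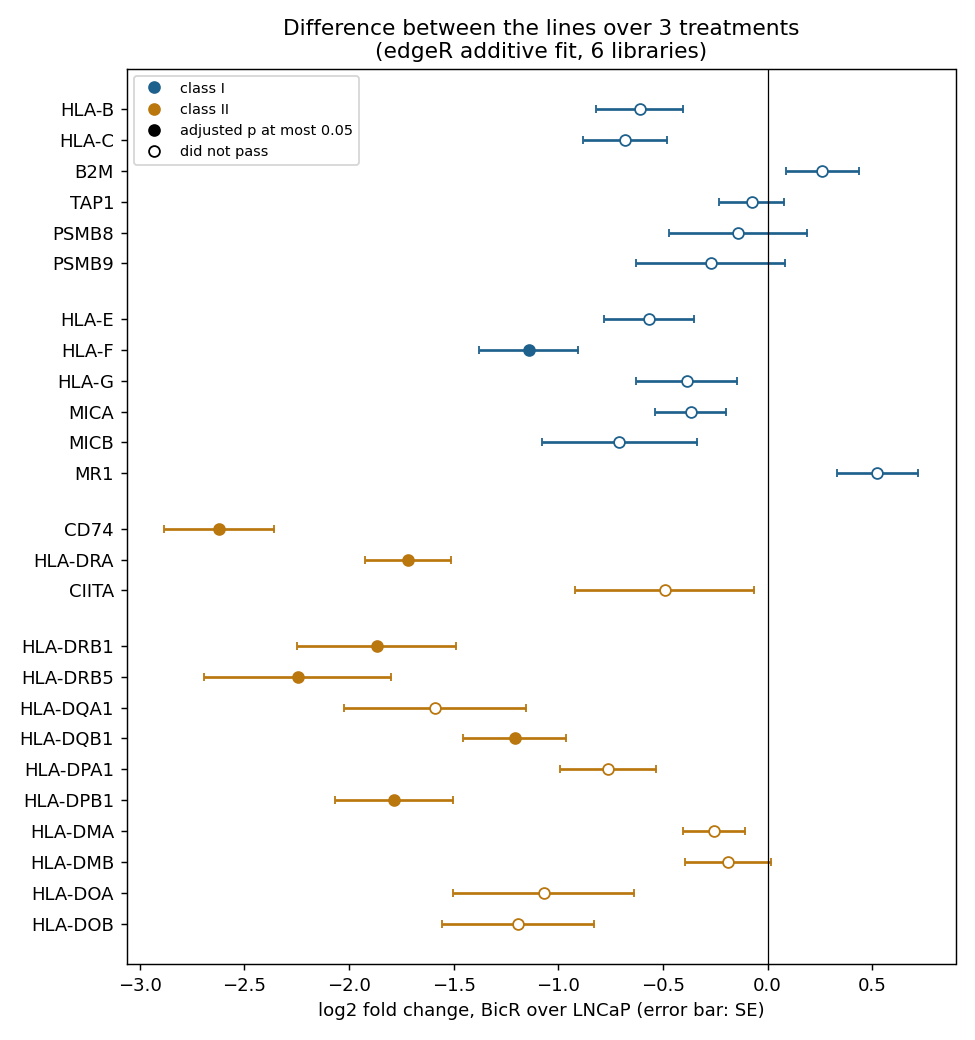
Fitted log2 fold change, BicR over LNCaP, for class I genes (blue) and class II genes (orange), with SE as error bars and filled points for edgeR adjusted p at most 0.05. CD74 at -2.62 and HLA-DRB5 at -2.24 lie farthest left, and of the class I genes drawn HLA-F alone is filled.

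Regulators of these pathways were also compared. Of 12 transcription factor genes 10 were tested and 0 passed (median -0.03), with the class I coactivator gene NLRC5 at -0.21 (SE 0.22, edgeR adjusted p = 0.584) and IRF1 at -0.67 (SE 0.18, adjusted p = 0.0669). Of 13 interferon signalling genes 0 passed (median 0.09). JAK1, the receptor-associated kinase gene, had 11.6, 9.69 and 8.89 CPM in BicR under DHT, bicalutamide and ethanol, against 14.5, 20.4 and 25.2 CPM in LNCaP (-0.97, SE 0.24, edgeR adjusted p = 0.0569). JAK1 did not overlap between the lines, and every BicR library lay below every LNCaP library.

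Markers of other cells were set beside the class II difference. The 10 leukocyte markers summed to 0.418 to 0.469 RPKM in BicR and 0.256 to 0.374 RPKM in LNCaP. ITGAX, another of the 10, had 1, 6 and 3 counts in BicR under DHT, bicalutamide and ethanol, against 16, 13 and 19 counts in LNCaP, with no overlap, and too few to be tested. The 7 stromal markers summed to 3.99 to 5.11 RPKM in BicR and 6.30 to 8.48 RPKM in LNCaP, with COL1A2 at 0 in all libraries. Of the 5 stromal markers tested, COL3A1 (-2.09, edgeR adjusted p = 0.027) and COL1A1 (-0.72, adjusted p = 0.042) were lower in BicR and 0 were higher. The shares over all genes tested were 2.84% lower and 1.58% higher. The 4 endothelial markers, with CDH5 at 0 in all libraries, summed to 0.252 to 0.795 RPKM in BicR and 0.450 to 0.714 RPKM in LNCaP, and the 3 basal markers to 0.0365 to 0.213 RPKM in BicR and 0.0648 to 0.222 RPKM in LNCaP. The part of the leukocyte and stromal markers in the class II difference was not tested.

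The next comparison asked what DHT did. Over both lines 0 of the 9 genes passed, in a fit that called 0.158% of genes higher and 0.0072% lower (22 and 1 of 13885). B2M stood at 0.57 (SE 0.21, edgeR adjusted p = 0.788), HLA-DRA at -0.52 (SE 0.25, adjusted p = 0.914), CIITA at -1.01 (SE 0.55, adjusted p = 1) and the other 6 between -0.38 and -0.15 with adjusted p = 1. None of the 6 lists of other pathway genes had a member that passed, and IRF1 at -0.92 (SE 0.21, edgeR adjusted p = 0.325) had the smallest adjusted p among them. This fit averages the response over both lines, and what differs between the lines adds to the error.

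Within a line there was 1 library per arm and no replicate, so ratios are given with an exact 95% interval that covers counting error only. In BicR, 8 of the 9 genes were lower under DHT than under ethanol by that interval and B2M was higher. Of all genes tested, 29.5% lay below and 31.2% above by the same rule. PSMB9 stood at 0.419 times its ethanol level (0.308 to 0.562), from 61 counts under DHT and 181 under ethanol. CIITA stood at 0.248 times (0.0743 to 0.66), from 5 and 25 counts. CD74 stood at 0.527 times (0.401 to 0.686) and HLA-DRA at 0.55 times (0.467 to 0.646). The abundant class I genes moved less: HLA-B stood at 0.813 times (0.795 to 0.83), HLA-C at 0.841 times (0.825 to 0.857) and TAP1 at 0.85 times (0.806 to 0.897).

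B2M went the other way in BicR, at 1.76 times its ethanol level (1.71 to 1.8). TAP1 and PSMB9, the divergent neighbours shown above, differed in size, and their ratio in RPKM in BicR was 13.3 under DHT, 8.46 under bicalutamide and 6.54 under ethanol. In LNCaP the same ratio was 6.30, 8.87 and 8.35, lowest under DHT. On the log2(CPM + 1) scale 0 of the 9 genes reached 2-fold in BicR in either direction, where 1.45% of all genes did so higher and 0.922% lower. The medians were -0.27 for class I and -0.67 for class II, beside 0.00 over all genes. Set against the bicalutamide library, CD74 stood at 0.612 times (0.462 to 0.806), HLA-DRA at 0.509 times (0.433 to 0.598), PSMB9 at 0.546 times (0.396 to 0.745) and B2M at 1.58 times (1.54 to 1.62), and 0 of the 9 reached 2-fold on that scale, where 1.43% of all genes did so higher and 1.04% lower.

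In LNCaP the ratios of the 9 genes lay on both sides of 1, between 0.795 and 1.25. PSMB9 stood at 1.25 times its ethanol level under DHT (1.01 to 1.56) and CD74 at 1.12 times (1.03 to 1.23). HLA-DRA stood at 0.843 times (0.781 to 0.909), HLA-B at 0.883 times (0.869 to 0.896) and HLA-C at 0.875 times (0.863 to 0.886). B2M stood at 1.24 times (1.2 to 1.27), the same side of 1 as in BicR. Here too 0 of the 9 reached 2-fold on the log2(CPM + 1) scale, where 1.4% of all genes did so higher and 1.19% lower. Against the LNCaP bicalutamide library all 6 class I genes were higher under DHT by their intervals, with HLA-C at 1.44 times (1.42 to 1.47) and PSMB9 at 1.6 times (1.27 to 2.03), so the direction for HLA-B, HLA-C and TAP1 depended on which DHT-free library was used. Of all genes tested, 36.6% lay above and 38.1% below by the same rule. Of the class II genes, CD74 stood above, at 1.27 times (1.15 to 1.39), and HLA-DRA and CIITA below, at 0.908 times (0.841 to 0.98) and 0.468 times (0.256 to 0.83). Again 0 of the 9 reached 2-fold, beside 1.58% of all genes higher and 0.893% lower. Whether the lines differed in their DHT response could not be tested.

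**Figure D4:**
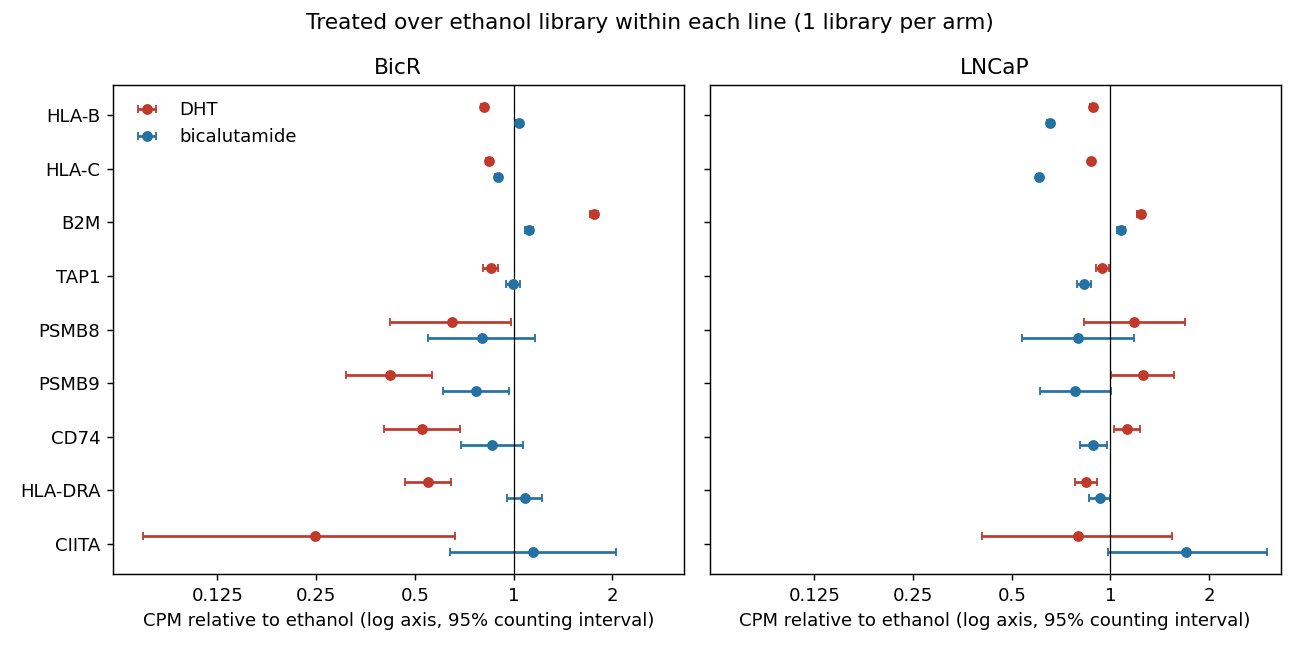
CPM of the DHT library (red) and the bicalutamide library (blue) relative to the ethanol library of the same line, on a log axis, with 95% counting intervals and 1 library per arm. In BicR the DHT points of all genes but B2M lie left of 1, down to 0.248 for CIITA, while in LNCaP they lie between 0.795 and 1.25.

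Among the other pathway genes in BicR, class II genes had a median of -0.26 on the log2(CPM + 1) scale between DHT and ethanol, with 13 of 16 below 0, and class I chain genes a median of -0.29, with 5 of 7 below 0. HLA-DPA1 stood at 0.468 times its ethanol level (0.394 to 0.553) and HLA-DQB1 at 0.565 times (0.495 to 0.644). In LNCaP the class II genes had a median of -0.18, with 10 of 16 below 0, and the class I chain genes -0.16, with 6 of 7 below 0. Medians over all genes were 0.00 in BicR and 0.01 in LNCaP. Against LNCaP bicalutamide both lists had a median of 0.30, with 11 of 16 and 5 of 7 above 0. HLA-DQB1 in LNCaP had 26.9 CPM under DHT, 17.9 under bicalutamide and 37.6 under ethanol. In BicR the regulators IRF1 and NLRC5 stood at 0.495 times (0.452 to 0.541) and 0.576 times (0.497 to 0.666). In LNCaP, IRF1 stood at 0.556 times (0.523 to 0.591) and NLRC5 at 1 times (0.892 to 1.13). Against LNCaP bicalutamide, IRF1 under DHT stood at 0.852 times (0.797 to 0.91) and NLRC5 at 0.993 times (0.884 to 1.11). Constitutive proteasome genes had a median of 0.05 in BicR, and PSMB9 amounted to 1.74%, 3.90% and 4.43% of its constitutive counterpart PSMB6 in RPKM under DHT, bicalutamide and ethanol. In LNCaP that share was 3.53%, 2.54% and 2.88%.

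The last comparison asked what bicalutamide did in hormone-poor medium. Over both lines 0 of the 9 genes passed, nor did any other gene of the table (0% in either direction by edgeR; at an unadjusted p of at most 0.05 it had 52 higher genes and 89 lower ones). DESeq2 also called 0 genes and limma on RPKM called 1 lower. In LNCaP the heavy chain transcripts were lower than under ethanol by their counting intervals: HLA-C stood at 0.605 times (0.596 to 0.614) and HLA-B at 0.654 times (0.643 to 0.665). In BicR, HLA-C stood at 0.894 times (0.878 to 0.91) and HLA-B at 1.04 times (1.02 to 1.06). The nonclassical genes HLA-E and HLA-F were also lower in LNCaP, at 0.585 times (0.562 to 0.607) and 0.554 times (0.502 to 0.611), against 1.05 times (1.01 to 1.1) and 1.03 times (0.905 to 1.18) in BicR. The ethanol library in this ratio is the LNCaP library with high HSPA5; HSPA5 under bicalutamide stood at 0.167 times its ethanol level (0.166 to 0.168), and the part of that in the heavy chain ratios was not tested. The LNCaP DHT library, at 1348 CPM of HSPA5, had HLA-B and HLA-C at 607 and 795 CPM. It is 1 library that also differs in treatment, so HSPA5 level and treatment cannot be told apart in it.

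Under bicalutamide the ratios of CD74 and HLA-DRA were nearer to 1 than those of HLA-B and HLA-C in LNCaP, but not in BicR. In LNCaP, CD74 stood at 0.887 times its ethanol level (0.806 to 0.977) and HLA-DRA at 0.928 times (0.862 to 1). In BicR, CD74 stood at 0.86 times (0.691 to 1.07) and HLA-DRA at 1.08 times (0.951 to 1.22). CIITA stood at 1.7 times in LNCaP (0.983 to 3.01), from 39 and 22 counts, and at 1.14 times in BicR (0.639 to 2.06). The other class II genes had a median of -0.28 on the log2(CPM + 1) scale in LNCaP, with 14 of 16 below 0 and 2 at least 2-fold lower. In BicR their median was 0.03, with 6 of 16 below 0. The median over all genes was 0.01 in both lines. None of the 9 genes reached 2-fold on the log2(CPM + 1) scale in either line, where 0% of all genes did so in BicR, and 1.08% higher and 1.52% lower in LNCaP.

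Of the genes with the most similar pattern over the 6 libraries, measured by Euclidean distance between centred log2(CPM + 1) values, SCAMP3, POLD4 and TMEM129 came closest to the mean of HLA-B, HLA-C and B2M, at distances of 0.0389, 0.056 and 0.0761. Closest to CD74 were SNCG, PPP1R1B and RALYL at 0.675, 0.701 and 0.744. SNCG averaged 0.427 CPM in BicR and 4.46 CPM in LNCaP.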

How the data were processed

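RNA of 6 libraries was sequenced on the SOLiD 3 Plus system, per the labels' protocols, and placed on a genome build that the submitters' processing notes name as hg19. No source used here gives the aligner, the counter, the annotation or whether strand was used. The authors deposited raw counts per gene symbol and RPKM values beside them, per the file headers. RPKM were used for levels between genes and as an alternative.

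Genes averaging 20 counts or more over the 6 libraries were fitted as line plus treatment with edgeR 4.0.16 (R 4.3.3): TMM scaling, quasi-likelihood test, 2-sided, Benjamini-Hochberg over 13885 genes, 2 residual degrees of freedom. The SE is the log2 fold change over the root of F. The fit was tested on counts simulated with line differences and no treatment effect. It recovered 100 of 100 genes set at 4-fold and 79 of 100 set at 2-fold, and called 8 unchanged genes. The simulated lines did not differ in their response to treatment, which adds to the error in the real fit. The simulation therefore does not give the error rate for these libraries. Nothing says that libraries are separate cultures, so the p-values speak of the spread among these 6 libraries, which may be technical. Count ratios carry exact 95% intervals conditional on the summed count. Within a line a gene was counted at 2-fold on log2(CPM + 1), which understates changes of low genes.

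Alternatives used DESeq2 1.42.0, limma 3.58.1 on log2(RPKM + 0.1), other scalings, filters and pseudocounts, and each library left out. The genes, lists and tests were chosen with earlier results of these data known. From each list the text names those that passed between the lines, at most 4 a direction, and 11 fixed genes, some of which are not reported here; HLA-E, ITGAX, COL1A1, COL3A1 and HSPA5 were added after their values were seen.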

Additional observations from a re-analysis of the deposited data

Results flagged for a closer look

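For 2 of the 9 genes under DHT and 1 of the 9 under bicalutamide, the counting intervals lay on opposite sides of 1 in the 2 lines. Each arm had 1 library, and the difference was not tested. Of all genes tested, 23.1% did so under DHT and 16.0% under bicalutamide, so the members did so no more often than genes at large. PSMB9 under DHT stood at 0.419 times its ethanol level in BicR and 1.25 times in LNCaP. CD74 under DHT stood at 0.527 times in BicR and 1.12 times in LNCaP. HLA-B under bicalutamide stood at 1.04 times in BicR and 0.654 times in LNCaP, where the ethanol library is the library with high HSPA5.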

How the results depend on the processing

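No paired analysis was possible because the labels give no replicate numbers; treatments matched the lines in the fit. Leaving out each library in turn moved the fitted line difference of CD74 between -2.81 and -2.28 and that of HLA-DRA between -1.89 and -1.48, and both were called in 11 of 13 alternatives. The exceptions were the fits without either bicalutamide library; the cause was not tested. TAP1 had the opposite sign with library totals, at 0.0085. Leaving out 1 library turned the sign of differences that had not passed. Between the lines TAP1 ran from -0.19 to 0.0176, PSMB8 from -0.29 to 0.14, PSMB9 from -0.55 to 0.23, TAPBP from -0.36 to 0.13 and NLRC5 from -0.35 to 0.0568. Under DHT, PSMB8 ran from -0.62 to 0.24, PSMB9 from -1.25 to 0.31 and CD74 from -0.91 to 0.15. Under bicalutamide, HLA-B ran from -0.64 to 0.0809, B2M from -0.0034 to 0.27, TAP1 from -0.31 to 0.0264, PSMB9 from -0.79 to 0.0675, CD74 from -0.47 to 0.0837, HLA-DRA from -0.26 to 0.26 and CIITA from -0.009 to 0.95. Genes called between the lines, 219 higher and 395 lower, were 557 and 933 by DESeq2, 503 and 857 without a filter, 133 and 232 at a mean of at least 100 counts, 523 higher with library totals, 332 higher by limma on RPKM, and 137 higher without the treatment term. Genes called for DHT, 22 and 1, were 75 and 24 by DESeq2, 57 and 7 with library totals, 66 and 11 without a filter, and 0 lower at 100 counts, by edgeR with 298 lower at an unadjusted p of at most 0.05. For bicalutamide limma called 1 lower. Without 1 library in turn, the line counts ran from 0 to 225 higher and 0 to 470 lower, DHT from 0 to 167 and 0 to 106, and bicalutamide from 0 to 102 and 0 to 95. Pseudocounts of 0.1 and 5 gave 408 and 55 genes lower under DHT in BicR; in LNCaP they gave 352 and 78 higher and 304 and 84 lower under DHT, and 303 and 45 higher and 337 and 130 lower under bicalutamide. Under bicalutamide in BicR a pseudocount of 0.1 gave 15 higher and 15 lower. The summed differences moved by less than 1 SD over treatments under the other scalings, with RPKM and by medians, and without 1 treatment pair lay between -0.61 and -0.35 for class I, -2.19 and -1.70 for class II and -1.77 and -1.30 for their gap. Depth limits CIITA, PSMB8 and PSMB9 most, at 5 to 200 counts per library.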
